A study of Homo sapiens with 12 samples.

Results

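Late changes in RNA levels were described in U937 cells in which the RNA-binding protein IGF2BP3 was targeted for degradation. They cover the 11943 genes with a base mean of 50 or more at 24 h against NT, out of 24629 listed and 16104 tested. U937 is a human acute myeloid leukaemia line with monocytic features. All libraries of this comparison came from U937 BP3-mAID cells, in which IGF2BP3 carries the mAID degron tag. The NT group (2 libraries) was untreated, and the 24 h group (2 libraries) was held in 5-Ph-IAA, the ligand that directs mAID-tagged proteins to degradation, for 24 h. A 6 h group (2 libraries) of the same cells shares the NT libraries, and MOLM13 leukaemia cells with the hairpins shBP3-1 or shBP3-2 were compared with their own control hairpin shNS, again with 2 libraries per group. Polyadenylated RNA was named as the molecule for U937, whereas the MOLM13 titles name total RNA. The tagged cells are called by 1 line name, U937 cells without the tag held in 5-Ph-IAA were not analysed here, and the protein was not measured here. The labels do not say whether the libraries of a group came from separate cultures, so a p-value may measure technical spread only.

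IGF2BP3 belongs to a family of proteins that bind N6-methyladenosine (m6A) and other sites on messenger RNA and are known for protecting bound transcripts from decay. It is an oncofetal protein, abundant in embryonic tissue and expressed again in many leukaemias. An inducible degron removes the protein and leaves its gene in place.

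The authors' deposited table gives per gene a base mean (reads divided by size factors and averaged over the 4 libraries), a log2 fold change of 24 h over NT and an adjusted p, and a gene counted as risen or fallen at an adjusted p under 0.05. No values per library were held, so group means stand in for values per library and whether single libraries overlap cannot be said. Group means in normalised reads were worked out from the base mean and fold change, and standard errors (SE) from the p-value. The libraries held between 10227665 and 15176967 reads in listed genes. The 3 tested genes just inside the base mean limit were CFAP418 (50.1), IFI27L1 (50.1) and ENSG00000288871 (50.1), and the 3 just outside were FNTB (49.99), PRPF18 (49.98) and ENSG00000289278 (49.98), in the authors' deposited table. Of 16 myeloid markers, 12 were members, among them CD33, SPI1, CTSG and ELANE, whereas CD68, TYROBP, MPO and CSF2RA had base means under 10 in the authors' deposited table. Of 28 markers of other blood and tissue cells, 17 were not in the table and 2 were members, and their summed level was 814 normalised reads at NT and 917 at 24 h. The members PECAM1 and NCAM1 made up most of that sum, and HBB, HBA1, HBA2, CD8A and ITGA2B had base means under 10.

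At 24 h, 5940 of the 11943 members had changed, which is 49.7% of them. The 2900 that rose were 24.3% and the 3040 that fell were 25.5%. Most changes were small: 1855 of the risen and 1874 of the fallen genes moved by less than 1.5-fold. At least 2-fold changes were made by 219 risen genes (1.83%) and 366 fallen genes (3.06%), so the larger changes were more often falls. The median log2 fold change was 0.49 among the risen and -0.49 among the fallen genes, and 0.00032 over all members. The median SE of a log2 fold change was 0.116 over all members, 0.061 for the 3134 members with a base mean of at least 1000 and 0.29 for the 1411 members under 100. The share called followed this precision: 10.1% rose and 12.9% fell up to a base mean of 148, against 34.3% and 39.97% from 1274 upward. When libraries were scaled to equal totals, which moves every log2 fold change up by 0.077, 3622 genes rose and 2412 fell. Of 10127 protein-coding members 2607 rose and 2729 fell, and of 1511 long noncoding RNAs 255 rose and 260 fell. The longest annotated transcript had a median of 3731 bases in risen, 3626 in fallen and 3220 in uncalled members (GENCODE release 29), and the uncalled genes also had a lower median base mean, 281 against 699.8 and 722.

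**Figure D1:**
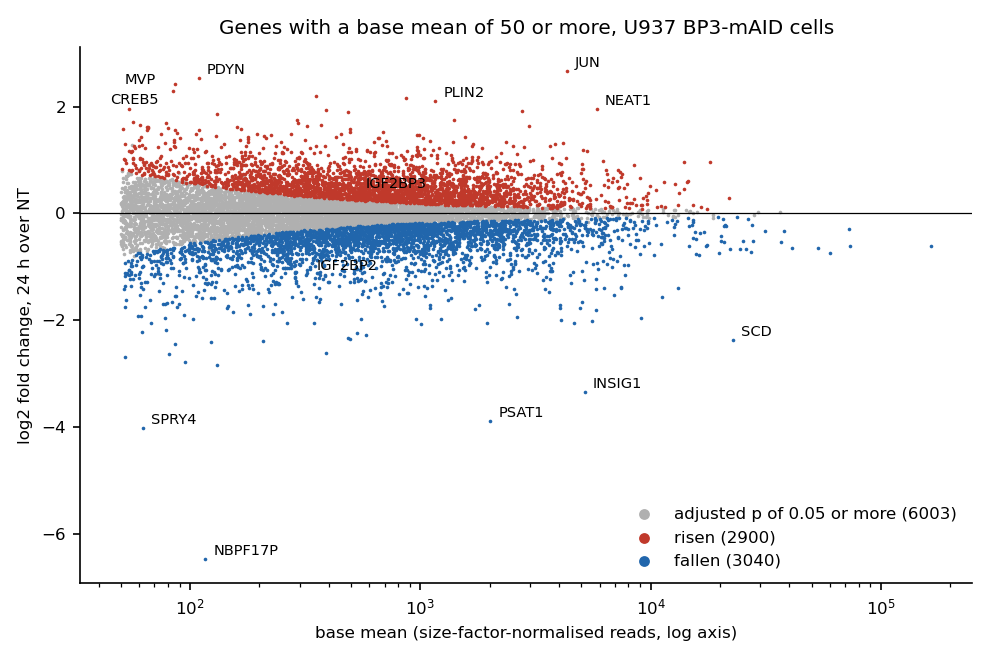
Log2 fold change of 24 h over NT (vertical axis) against base mean in normalised reads (log axis) for the 11943 members in the authors' deposited table, with risen genes in red, fallen genes in blue and genes with an adjusted p of 0.05 or more in grey. JUN is the highest point and NBPF17P the lowest, and the grey band narrows as the base mean grows.

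The largest rises were led by JUN, the AP-1 subunit, whose mean went from 1179.6 normalised reads at NT to 7459 at 24 h. Its log2 fold change in the authors' deposited table was 2.66 (SE 0.079, adjusted p 8.4e-245). PLIN2, which coats lipid droplets, went from 438 to 1885, and NEAT1, the long noncoding RNA that builds paraspeckles, from 2391 to 9273. Of the 12 genes with the highest log2 fold changes these 3 and LINC00926, a long noncoding RNA that went from 1157 to 4390.2, were the most abundant. TASL, an adaptor of endosomal Toll-like receptors, rose from 126 to 581, and NUDT16L1, which binds the repair factor TP53BP1, from 316 to 1410.3. TP53INP2, an autophagy factor, rose from 207 to 767 and STOX2 from 161 to 621. The other 4 had NT means between 22.3 and 32: PDYN, the precursor of dynorphins, rose to 186, MVP, the major vault protein, to 145, the transcription factor CREB5 to 140.00 and PATL2 to 86.5. Their SEs ran from 0.28 to 0.37 on the log2 scale, several times that of JUN.

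The largest falls were held by a pseudogene and by genes of metabolism and signalling. NBPF17P went from 229 to 2.58 normalised reads, and its log2 fold change of -6.47 in the authors' deposited table rests on that low 24 h mean. It belongs to a family of near-identical copies among which reads can be split, so its value is uncertain. SPRY4, an inhibitor of receptor tyrosine kinase signalling, went from 118 to 7.26; these were the only 2 members with a 24 h mean under 10. PSAT1, the aminotransferase of serine synthesis, fell from 3759 to 252, 6.71% of NT. INSIG1, which holds the sterol regulator SREBP in the endoplasmic reticulum, fell from 9404 to 923, 9.82% of NT. Both are among 16 members whose adjusted p is listed as 0 in the authors' deposited table, which leaves them without an SE. Others among the 12 lowest were NLRP12 (229.9 to 32), a NOD-like receptor, ADM2 (166 to 24), a peptide hormone gene, RGS16 (146 to 26.7), a regulator of G-protein signalling, and HK3 (207 to 39), a hexokinase of myeloid cells. NCF1C (90 to 14) is a near-identical copy of NCF1, so its reads may belong to either. SLC7A11-AS1 (139 to 22.3) lies antisense to the cystine transporter gene SLC7A11, which fell too, and whether strand was used in counting is not given in the sources used here.

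**Figure D2:**
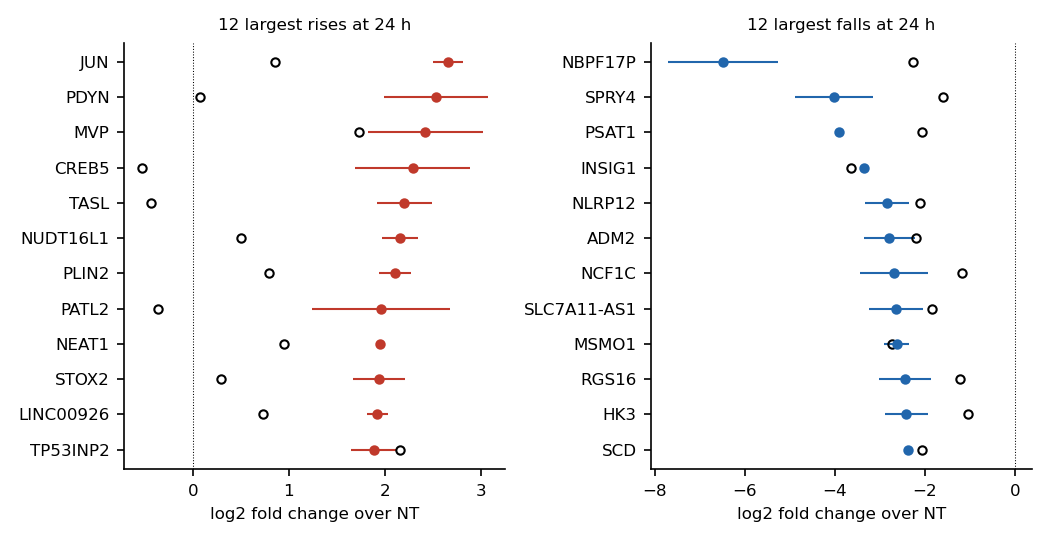
The 12 highest (left, red) and 12 lowest (right, blue) log2 fold changes of 24 h over NT with 95% intervals, and the values of the same genes at 6 h over NT as open circles, both from the authors' deposited tables. Points without an interval have an adjusted p listed as 0, and the intervals are widest for genes of low base mean such as PATL2, SPRY4 and NBPF17P.

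The targeted gene's own transcript, IGF2BP3 (chr7:23310209-23470467, minus strand, hg38), had a mean of 505 at NT and 563 at 24 h. Its log2 fold change in the authors' deposited table was 0.15 (SE 0.10, 95% interval -0.05 to 0.36, adjusted p 0.25), which did not pass the test. The degron acts on protein, so the transcript does not check the labels. The paralogue IGF2BP2 fell from 400.1 to 252 (log2 fold change -0.67, SE 0.13, adjusted p 3.2e-06 in the authors' deposited table). Of 15 genes for m6A writers, erasers and YTH readers, 10 rose and none fell, against 24.3% of all members risen and 25.5% fallen. Their median log2 fold change was 0.34. CBLL1 of the writer complex went from 543 to 986, METTL14, the partner of the catalytic subunit, from 463 to 698, the cytoplasmic reader YTHDF3 from 1236 to 1848 and the reader YTHDC2 from 810.2 to 1167. These 4 rises were all under 2-fold.

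Cholesterol genes were lower at almost every step. Cells make cholesterol when SREBP2 drives the enzymes of its synthesis, and INSIG1 holds this step back. Of 25 members in the list 21 fell and none rose (1 with libraries scaled to equal totals), with a median log2 fold change of -1.22 against 0.00032 over all members. The fall was already there at 6 h, when 20 of the 25 had fallen, against 14.2% of all members, with a median of -1.22; INSIG1 was at -3.63 on the log2 scale at 6 h and -3.35 at 24 h in the authors' deposited tables. By a test of the difference of the log2 fold changes, 6 of 23 tested genes were higher and 2 lower at 24 h than at 6 h, against 12.7% and 13.9% of all members. Beside INSIG1, the members that fell included MSMO1, a demethylase of the sterol ring, which went from 671 to 109. In fatty acid synthesis and desaturation 11 of 16 fell and 2 rose, with a median of -0.65, and at 6 h 10 had fallen, with a median of -0.45. SCD, the stearoyl-CoA desaturase and among the most abundant of these transcripts, went from 38026 to 7366, the desaturases FADS1 and FADS2 from 6552 to 1632 and from 7531 to 1803, and fatty acid synthase FASN from 14369 to 3707. All 4 were at 19.4% to 25.8% of NT. Of 10 genes of oxysterol sensing 3 rose, with PLIN2 and the oxysterol receptor GPR183 (39.9 to 121) highest, and 2 fell, the lysosomal cholesterol exporter NPC1 (2881 to 1696) and the ubiquitin ligase MYLIP (788 to 528). Over all members 24.3% rose and 25.5% fell at 24 h, so nothing is read from the oxysterol counts.

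Amino acid supply genes fell across the pathway from serine synthesis to tRNA charging. ATF4 is the transcription factor that raises these genes when amino acids are short or the endoplasmic reticulum is stressed. Of 16 ATF4 list members 12 fell and 4 rose, with a median log2 fold change of -0.99. Over all members 25.5% fell and 24.3% rose at 24 h, so the risen ATF4 share was near that of all members. At 6 h 13 of the 16 had already fallen and 2 had risen, with a median of -1.01, and 4 were higher and 3 lower at 24 h than at 6 h by the test of the difference. Of all members 14.2% had fallen and 12.4% had risen at 6 h, and 12.7% were higher and 13.9% lower by the test of the difference. ADM2 was lowest, and SESN2, a sensor that restrains mTORC1, went from 809.8 to 160.3 and DDIT4, another mTORC1 inhibitor, from 1628 to 389. PPP1R15A, the phosphatase subunit that restores translation, rose from 353 to 1019. Among 14 serine and folate one-carbon enzymes 13 fell and 1 rose (median -0.79), against 10 fallen at 6 h (median -0.40), and 7 of 12 tested were lower at 24 h than at 6 h. Beside PSAT1, PHGDH, the first enzyme of serine synthesis, went from 6219 to 1828, and the mitochondrial folate enzymes MTHFD2 and SHMT2 from 3845 to 1342 and from 4856 to 2138. Of 12 enzymes of glutamine, asparagine and proline 9 fell and 1 rose, with the aminotransferase GPT2 lowest (1708 to 498). Of 15 amino acid transporters 9 fell and 2 rose (median -0.34), and at 6 h 9 had fallen as well (median -0.34), the largest falls being the cystine transporter SLC7A11 (872 to 184), the leucine transporter SLC7A5 (7655 to 2432), SLC7A1 for cationic amino acids (2745 to 1229) and SLC1A5 for glutamine (10652 to 4811).

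The synthetases that join amino acids to tRNAs fell in 14 of 20 cases and rose in 4, with a median log2 fold change of -0.50. At 6 h 13 had fallen and 1 had risen (median -0.26). Among all members 25.5% fell and 24.3% rose at 24 h, and 14.2% fell and 12.4% rose at 6 h. AARS1 for alanine went from 4179.7 to 1089, GARS1 for glycine from 6226 to 1887, WARS1 for tryptophan from 983 to 347 and YARS1 for tyrosine from 5340.3 to 1919.5. Of 16 synthetase genes with a RefSeq promoter window (GRCh38.p14, 250 bases before to 50 after the start; 8740 members matched by symbol), 7 held the amino acid response element TGATGNAA on either strand. Over all 27305 genes with a window 4.46% held it, and over members 2.65%. Of fallen members with a window 3.10% held it, and of risen members 2.38%. Among other lists it was in 5 of 14 amino acid transporters and 4 of 16 ATF4 list genes. It was in only 1 of 9 serine and one-carbon enzymes and 1 of 8 enzymes of glutamine, asparagine and proline. Windows of 4 of the 7 synthetase genes are shown, chosen after the values were seen, with the match in capitals. Where the strand of the gene reads the other way the capitals spell TTNCATCA. The start of the AARS1 window, unlike those of the others shown, was not found in a GENCODE release 29 transcript of the gene. The windows lie at chr16:70289675-70289704 (AARS1, minus strand), chr7:30594834-30594863 (GARS1, plus strand), chr9:92293692-92293721 (IARS1, minus strand) and chr12:57488053-57488082 (MARS1, plus strand).
AARS1: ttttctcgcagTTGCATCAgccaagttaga
GARS1: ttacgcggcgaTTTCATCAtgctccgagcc
IARS1: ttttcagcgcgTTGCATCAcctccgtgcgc
MARS1: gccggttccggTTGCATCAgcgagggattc
The isoleucine gene IARS1 went from 6252 to 2908 and the methionine gene MARS1 from 3627 to 1718. All 7 synthetase genes with the element had fallen, to between 26.1% of NT and the 85.4% of NARS1, the asparagine gene. The 4 shown lie in the lower part of that range, up to 47.4%. Of those not shown, CARS1 was at 47.3%, TARS1 at 63.0% and NARS1 at 85.4%. The element was also in the windows of SLC3A2 and ATF3, which rose. A match is a description of the letters and not evidence of binding. The sterol element TCACNCCAC, held by 1.39% of all windows, was in 1 of 19 cholesterol genes with a window.

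Chaperones of the endoplasmic reticulum were lower as a group, with 17 of 22 fallen, 1 risen and a median log2 fold change of -0.64. At 6 h 14 of the 22 had already fallen and none had risen, with a median of -0.63, and 7 of 20 tested were lower and 2 higher at 24 h than at 6 h. Among all members 25.5% fell and 24.3% rose at 24 h, and 14.2% fell and 12.4% rose at 6 h. By the test of the difference 13.9% were lower and 12.7% higher. PDIA4, a disulphide isomerase, went from 3153 to 756, the chaperone HSP90B1 from 8981 to 2556, the degradation factor HERPUD1 from 801 to 259.8 and the isomerase PDIA3 from 10325 to 3588. Of 21 of these genes with a window, 7 held the ER stress element, CCAAT and CCACG with 9 bases between, against 0.0916% of all windows and 0.183% of members' windows. This element was chosen after the values were seen. Windows of 4 are shown with the element in capitals, at chr9:125241386-125241414 (HSPA5, minus strand), chr12:103930211-103930239 (HSP90B1, plus strand), chr2:10812848-10812876 (PDIA6, minus strand) and chr22:28800598-28800626 (XBP1, minus strand).
HSPA5: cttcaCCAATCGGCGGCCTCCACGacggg
HSP90B1: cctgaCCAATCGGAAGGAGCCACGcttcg
PDIA6: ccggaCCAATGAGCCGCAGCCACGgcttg
XBP1: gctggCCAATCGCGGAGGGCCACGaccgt
HSPA5, the main chaperone known as BiP, went from 10737 to 4119, PDIA6 from 9053 to 3458 and XBP1, the transcription factor of the unfolded protein response, from 4224 to 2859. All 7 genes with the element had fallen, to between 28.5% and 74.6% of NT, and the 4 shown to at most 67.7%.

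**Figure D3:**
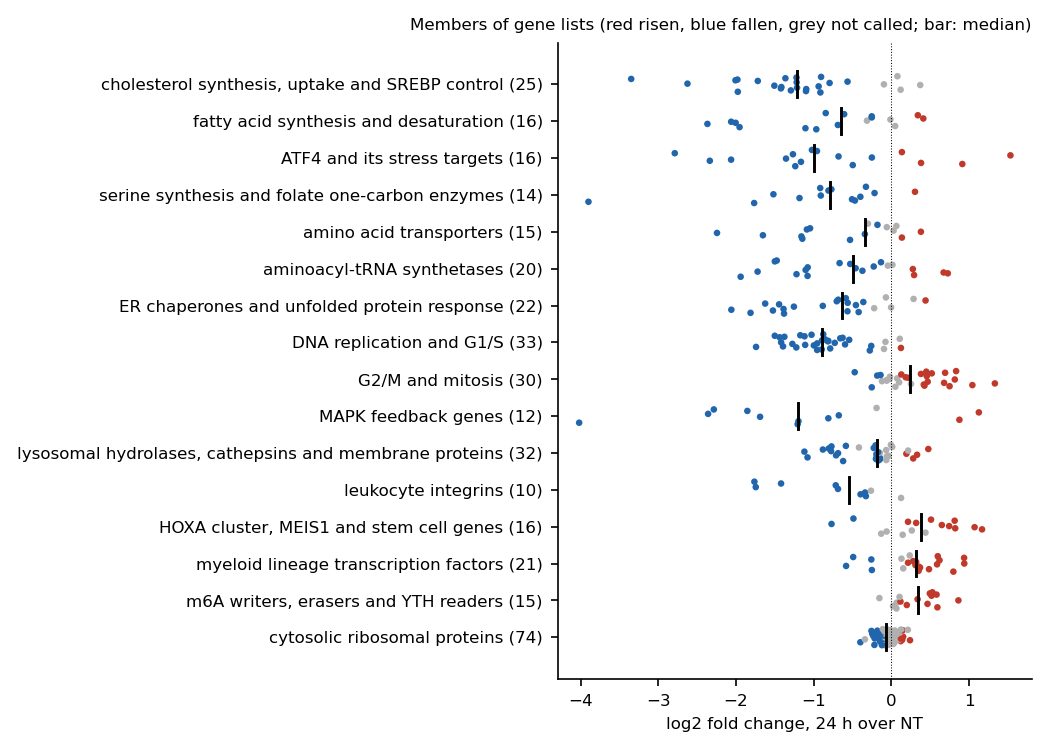
Log2 fold change of 24 h over NT for each member of 16 gene lists in the authors' deposited table (number of members in brackets), red for risen, blue for fallen, grey for not called, with a black bar at the median. The cholesterol, ATF4, replication and MAPK feedback lists lie mostly below 0, and the mitosis, HOXA and m6A lists mostly above.

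Replication and mitosis genes moved in opposite directions. Genes of DNA replication are drawn on in S phase, under E2F factors, and mitotic genes peak later in the cell cycle. Of 33 members of the replication and G1/S list 29 fell and 1 rose, with a median log2 fold change of -0.89. Of 30 G2/M and mitosis members 17 rose and 4 fell (2 with equal totals), with a median of 0.23. Among all members 24.3% rose and 25.5% fell. CDC6, which loads the replicative helicase, went from 1070.3 to 319.9, the activator E2F1 from 822 to 290.2, the flap nuclease FEN1 from 1868 to 689 and the sliding clamp PCNA from 8431 to 3152. In the mitosis list, the kinase PLK1 went from 1341 to 3373, the APC activator CDC20 from 2806 to 5773, HMMR from 1009 to 1796 and the kinetochore gene NDC80 from 446 to 784. MKI67, the proliferation marker and among the most abundant risen genes, differed by much less (15870.1 to 17325). Fewer cells in a phase and less RNA per cell cannot be told apart in bulk libraries.

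At 6 h both medians lay on the other side of 0. The replication list had 10 risen and 2 fallen genes at 6 h (median 0.12) and the mitosis list 1 risen and 13 fallen (median -0.13), against 12.4% of members risen and 14.2% fallen at 6 h. The difference of 24 h and 6 h passed its own test, at an adjusted p under 0.05, for 28 of 33 replication genes, all lower at 24 h, and for 19 of 30 mitosis genes, 18 of them higher. Over all members with this test 12.7% were higher and 13.9% lower at 24 h than at 6 h. E2F1 was higher than NT at 6 h (log2 fold change 0.57 in the authors' deposited table) and lower at 24 h (-1.50), a difference of -2.08 (SE 0.15, adjusted p 3.2e-39, normal test of the difference). Of 22 genes of nucleotide synthesis 16 fell and 1 rose at 24 h, against 25.5% and 24.3% of all members. The ribonucleotide reductase subunits RRM1 (3116 to 1706) and RRM2 (7673 to 4003) were among the largest falls. The G1 cyclin CCND3 fell from 16737 to 5639 and CDK2 from 1186 to 565, whereas CDK6 rose from 4171 to 8193.

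Of 29 replication genes with a promoter window 7 held the E2F element TTTCCCGC on either strand, against 1.98% of all windows and 3.49% of members' windows. Windows of 3 that fell are shown with the match in capitals, which spells GCGGGAAA where the gene reads the other strand, at chr20:5126663-5126692 (PCNA, minus strand), chr6:52284898-52284927 (MCM3, minus strand) and chr16:85688967-85688996 (GINS2, minus strand).
PCNA: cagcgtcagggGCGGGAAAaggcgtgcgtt
MCM3: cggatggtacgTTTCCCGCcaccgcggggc
GINS2: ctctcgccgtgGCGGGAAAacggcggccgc
MCM3, a subunit of the replicative helicase, went from 8496 to 4378, and GINS2, which joins the helicase, from 703 to 325. MCM7, another helicase subunit, was the 1 risen gene of the list (10242 to 11144) and also holds the element. The other 6 genes with it fell, to between 37.4% and 83.5% of NT, so the element was in both the risen gene and fallen genes.

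**Figure D4:**
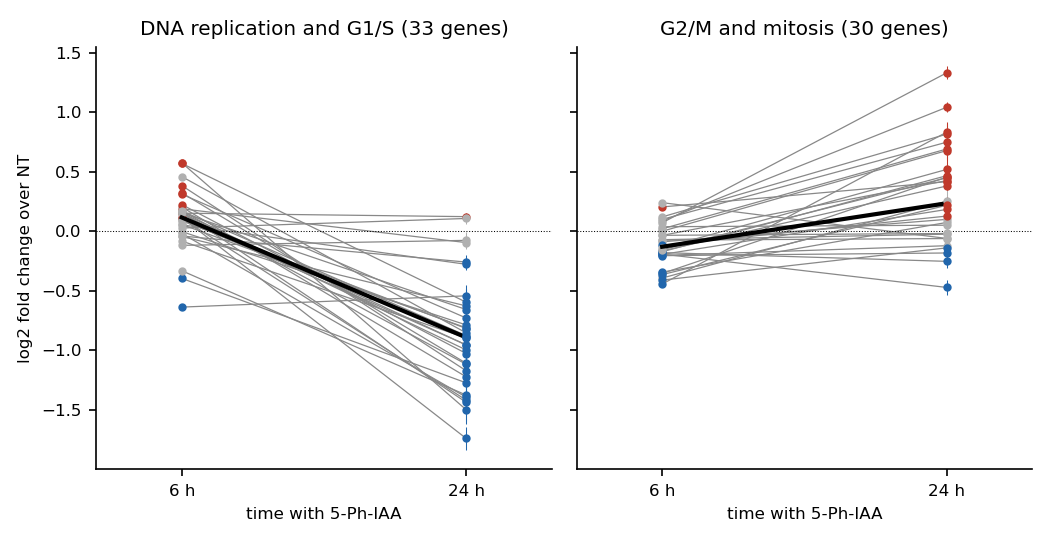
Log2 fold changes over NT at 6 h and 24 h for 33 replication and G1/S genes (left) and 30 G2/M and mitosis genes (right) in the authors' deposited tables, 1 thin line per gene, thick line for the median, bars of 1 SE at 24 h, red for risen, blue for fallen and grey for not called. The replication median goes from 0.12 to -0.89 and the mitosis median from -0.13 to 0.23; both time points share the NT libraries.

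Feedback genes of the MAPK pathway mostly fell. ERK signalling induces its own inhibitors and ETS factors, which are read as its output. Of 12 members of this list 9 fell and 2 rose, with a median log2 fold change of -1.20. At 6 h 7 had fallen and none had risen (median -0.63), and 5 were lower and 1 higher at 24 h than at 6 h. Among all members 14.2% had fallen and 12.4% had risen at 6 h, and 13.9% were lower and 12.7% higher at 24 h than at 6 h. Beside SPRY4, the ERK phosphatase DUSP6 went from 826 to 161 and the ETS factors ETV5 and ETV4 from 964 to 198 and from 239 to 66.2. Of 15 AP-1 and EGR genes 6 rose and 3 fell, against 24.3% and 25.5% of all members, and nothing is read from that count. With JUN, the factors KLF4 (97.9 to 187) and ATF3 (51.3 to 96.6) rose, and NR4A1 (184 to 104) fell. RELA, an NF-kB subunit, rose from 589.96 to 1343, and 2 of 15 members of the NF-kB list rose and 4 fell, or 4 and 2 when libraries were scaled to equal totals.

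Myeloid identity genes moved in both directions, as did all members, of which 24.3% rose and 25.5% fell. Of 21 lineage transcription factors 14 rose and 4 fell (median 0.32), among the risen ZEB2 (2812 to 5374), SPI1, the PU.1 factor of myeloid cells (1099 to 1908), and FLI1 (2543 to 3903). Of 16 HOXA, MEIS1 and stem cell genes 9 rose and 2 fell (median 0.38), led by HOXA9 (540.04 to 1211), HOXA11 (625 to 1312) and HOXA10 (1769.97 to 3125), homeobox factors known for sustaining leukaemic self-renewal, and by the Polycomb gene BMI1 (5248 to 9220.01). Of 12 primary granule genes 6 rose and 3 fell; lysozyme LYZ went from 303 to 634, azurocidin AZU1 from 1838 to 3501, and the membrane protein CD63 fell from 1664 to 974. At 6 h none of the 12 had risen and 9 had fallen, and 10 were higher at 24 h than at 6 h by the test of the difference. Among all members 12.4% had risen and 14.2% had fallen at 6 h, and 12.7% were higher by the test of the difference. Of 18 monocyte and macrophage genes 4 rose, with MNDA first (814 to 1777), and 7 fell, among them ITGAM, the CD11b integrin (80.5 to 24), and S100A9 (117 to 35.9).

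Adhesion and lysosome genes were mostly lower, whereas over all members 24.3% rose and 25.5% fell. Of 10 leukocyte integrins 8 fell and none rose (median -0.54), with the shared beta chain ITGB2 at 29.5% of NT (7633 to 2248) and ITGB1 at 37.4% (3725 to 1392). Of 32 lysosomal genes 19 fell and 4 rose (median -0.18); lysosomal lipase LIPA went from 1497 to 689, LAMP1 from 6807 to 3219, prosaposin PSAP from 4528 to 2456 and progranulin GRN from 4624 to 2643. With libraries scaled to equal totals 12 of the 32 fell. At 6 h 11 of the 32 had risen and 10 had fallen, and 16 were lower at 24 h than at 6 h by the test of the difference. Among all members 12.4% had risen and 14.2% had fallen at 6 h, and 13.9% were lower by the test of the difference. Of 26 autophagy genes 10 rose and 3 fell, among the risen the cargo receptor SQSTM1 (2213 to 5447) and the lysosomal regulator TFE3 (502 to 878). Of 32 actin genes 17 fell, ACTB among them (65059 to 41476), and 9 rose, with the myosin MYO1G first (3257 to 7303). That risen share is near the one of all members.

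Mitochondrially encoded transcripts fell together. Of 13 members 12 fell and all were below 0, with a median log2 fold change of -0.61, against 8 fallen at 6 h (median -0.17), and their share of reads in listed genes was 4.47% at NT and 3.01% at 24 h. For comparison, 25.5% of all 11943 members fell at 24 h, and 14.2% fell and 12.4% rose at 6 h. MT-CO1, a subunit of cytochrome oxidase and the most abundant of all members, went from 200043 to 131805, and MT-ND1, MT-ND4, MT-ND5 and MT-ATP6 were at 58.8% to 60.4% of NT. Nuclear-encoded respiratory chain subunits had a median of -0.0093, with 12 of 43 risen and 6 fallen, or 3 fallen when libraries were scaled to equal totals; the risen share is near the 24.3% of all members. Cytosolic ribosomal proteins had a median of -0.067, with 6 of 74 risen and 27 fallen, but 15 risen and 8 fallen when libraries were scaled to equal totals. Of 27 glycolysis and hypoxia genes 16 fell and 1 rose, or 4 rose with equal totals, and at 6 h 15 had fallen and 3 had risen. The fallen genes included the regulator PFKFB4 (224 to 65.7) and VEGFA (3362 to 1487). Of 19 NRF2 antioxidant genes 13 fell and 1 rose at 24 h, against 6 fallen and 9 risen at 6 h; PGD of the pentose phosphate pathway was at 0.27 at 6 h and -0.88 at 24 h on the log2 scale of the authors' deposited tables, a difference of -1.15 (SE 0.075, adjusted p 4.9e-50). Of 22 type I interferon genes 7 rose and 3 fell, a risen share not far from the 24.3% of all members, with IRF7 (48 to 101) highest and OAS3 (791 to 418) lowest.

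Gene families read from shared symbols were chosen after the values were seen and are described only, beside the 24.3% of all members that rose and the 25.5% that fell. Of 307 ZNF zinc finger genes 100 rose (32.6%) and 22 fell (7.17%), with a median log2 fold change of 0.20, so they stood further from all members in the share that fell than in the share that rose. Of 28 MRPS genes for the small subunit of the mitochondrial ribosome 57.1% rose and 10.7% fell (median 0.36), and of 45 MRPL genes for the large subunit 40.0% rose and 8.89% fell (0.17). The VPS genes of vesicle sorting had 48.6% of 35 risen and 5.71% fallen (0.32), the MED genes of Mediator 43.8% of 32 and 9.38% (0.24) and the KDM histone demethylases 70.6% of 17 and 11.8% (0.44). Of 191 SLC transporter genes 13.1% rose and 40.8% fell (-0.18).

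Genes whose 24 h value stood apart from 6 h were tested directly. The difference of the log2 fold changes over its SE, adjusted over all genes tested in both tables, called 1517 members higher and 1659 lower at 24 h than at 6 h. The shared NT libraries make this SE too large. Among genes changed at 24 h the largest positive differences were for CREB5 (2.82, SE 0.68), the netrin receptor UNC5C (2.77, SE 0.18) and TASL (2.64, SE 0.32). UNC5C was below NT at 6 h, with a log2 fold change of -1.53, and above it at 24 h, 1.24, in the authors' deposited tables. CCNA1, a cyclin of germ cells and leukaemias, likewise went from -0.55 to 1.74 and MS4A3, a granulocyte-monocyte progenitor marker, from -1.70 to 0.52 in the authors' deposited tables, each past the test at both times. Going down, the scavenger receptor MARCO went from 1.19 to -1.15 and CLSPN, the replication checkpoint mediator claspin, from 0.53 to -1.39 in the authors' deposited tables, also past the test at both times. NBPF17P (-4.22, SE 0.69) and FAM222A (-2.44, SE 0.44) had the largest negative differences. In several lists most tested members passed, whereas 12.7% of all members with this test were higher and 13.9% lower. Of the synthetases 11 of 19 were lower and 5 higher, and of the mitochondrially encoded genes 10 of 13 were lower. In the replication list 28 of 33 were lower, and of 12 primary granule genes 10 were higher and 1 lower.

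The MOLM13 hairpins give values from another line with its own controls, set side by side without a test. Among members tested there, 21.9% rose and 20.8% fell with shBP3-1, and 25.1% rose and 35.4% fell with shBP3-2; the hairpins share the shNS libraries. Of 2767 genes fallen at 24 h and tested with shBP3-1, 967 also fell with it, 34.9% of those fallen at 24 h and 44.3% of those fallen with the hairpin. With shBP3-2 it was 1475 of 2850, 51.8% and 38.2%. For risen genes the shared numbers were 685 of 2661 with shBP3-1 (25.7% and 29.9%) and 864 of 2738 with shBP3-2 (31.6% and 31.6%). In the opposite direction, 406 genes risen at 24 h fell with shBP3-1 (15.3%) and 858 with shBP3-2 (31.3%). Of genes fallen at 24 h, 535 rose with shBP3-1 (19.3%) and 525 with shBP3-2 (18.4%). PSAT1 had log2 fold changes of -3.90 at 24 h, -2.53 with shBP3-1 and -3.18 with shBP3-2 in the authors' deposited tables. PHGDH had -1.77, -2.05 and -3.04 in the same order, and JUN 2.66, 1.60 and 2.44, in the authors' deposited tables. CCNA1 rose in all 3 as well, at 1.74, 1.89 and 2.20 in the authors' deposited tables.

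Other lists lay on opposite sides of 0 in the lines. The ER chaperone list had a median of -0.64 at 24 h against 0.35 and 0.47 with the hairpins, and the leukocyte integrins -0.54 against 0.63 and 0.95. The lysosomal list had -0.18 against 0.76 and 1.28, with 28 of 32 genes risen under each hairpin. The mitosis list had 0.23 against -0.98 and -2.64, with 29 and 30 of its 30 genes fallen under shBP3-1 and shBP3-2. PLK1 illustrates this, at 1.33 at 24 h, -1.01 with shBP3-1 and -2.90 with shBP3-2 in the authors' deposited tables. The HOXA list had 0.38 against -0.28 and -0.89, whereas the serine and one-carbon enzymes lay below 0 in all (-0.79, -0.82 and -1.75). The lines differ in the means of IGF2BP3 loss, in its duration, in cell type and in the RNA sequenced (polyadenylated in U937, total in MOLM13). These cannot be told apart here.

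**Figure D5:**
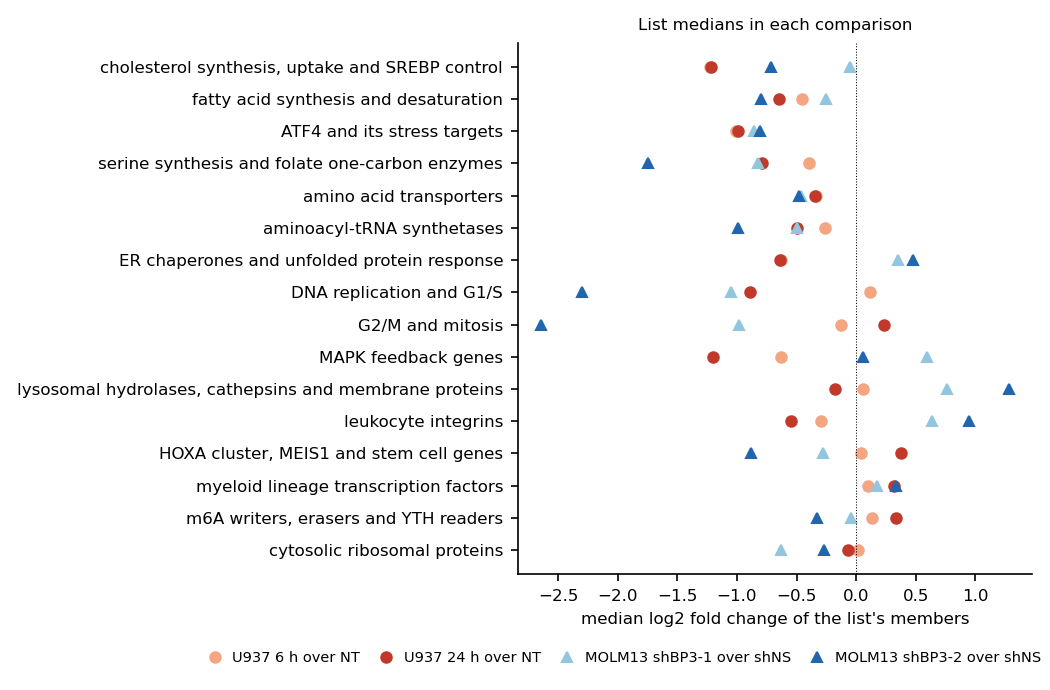
Median log2 fold change of the members of 16 gene lists in U937 at 6 h and 24 h over NT (circles) and in MOLM13 with shBP3-1 and shBP3-2 over shNS (triangles), from the authors' deposited tables. Circles and triangles lie on opposite sides of 0 for the ER chaperones and integrins, and the 24 h circle lies above 0 and the triangles below for the mitosis and HOXA lists.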

How the data were processed

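The submitters' processing notes name cutadapt 4.1, HISAT2 2.1.1, HTSeq 2.0.2, DESeq2 and the build hg38; the annotation release and strand setting are not given in the sources used here. Per the file headers, the deposited signal is DESeq2's base mean (normalised reads averaged over both groups), the deposited log2 value is the fold change over control, and the deposited p-value is adjusted over genes. No values per library were held, so the deposited statistics are the test, and planned edgeR fits were not run. From them, with pandas 2.3.3 and scipy 1.17.1, the Benjamini-Hochberg adjustment was reversed to give raw p-values, and SEs were obtained by assuming a normal test (approximate where adjusted p-values tie), group means came from base mean and fold change, and depth from base means of genes with 2 reads in 1 library. The steps were tested on simulated data. The 24 h and 6 h log2 fold changes were compared by a normal test of their difference, adjusted over 13919 genes; 18 members tested at 6 h had no usable SE. The members and lists were chosen with earlier results of these data known. Genes named are the IGF2BP family, the 12 highest and lowest changes, up to 4 changed members with the largest change per list, the 4 most abundant per direction, the 8 largest differences from 6 h per direction and 3 genes on each side of the base mean limit; genes named for their promoters, MCM7, and those counted as 5 or fewer, were named after their values were seen. Gene positions are from GENCODE release 29 and promoter sequences from RefSeq (GRCh38.p14), matched by symbol. Some members of the cholesterol list count in its totals and are not reported here by name.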

Additional observations from a re-analysis of the deposited data

Results flagged for a closer look

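The response at 24 h differed from that at 6 h for 1517 members that were higher and 1659 that were lower at 24 h, by the normal test of the difference of the log2 fold changes. Among genes changed at 24 h the largest positive differences (24 h minus 6 h, log2) were 2.82 for CREB5, 2.77 for UNC5C, 2.64 for TASL, 2.46 for PDYN, 2.32 for PATL2, 2.29 for CCNA1, 2.22 for MS4A3 and 2.18 for CAPN3. The largest negative differences were -4.22 for NBPF17P, -2.44 for FAM222A, -2.41 for SPRY4, -2.34 for MARCO, -2.11 for PSD3, -2.08 for E2F1, -1.92 for CLSPN and -1.86 for CDC6. Of these 16, CREB5, PDYN, PATL2, CAPN3, FAM222A, SPRY4, MARCO and PSD3 have base means under 110, and PATL2 has the widest SE of the difference (0.76).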

How the results depend on the processing

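The number of changed members was 4823 and 6600 at adjusted p limits of 0.01 and 0.1, 6250 with no base mean minimum and 5092 from a base mean of 200. A minimum of 1.5-fold left 2211 (1045 risen, 1166 fallen) and of 2-fold 585 (219 risen, 366 fallen), so the count depends on the fold asked for. Centring on the median gene gave 5937; equal totals gave 6034, with 3622 risen and 2412 fallen. Under equal totals 200 of 205 named genes kept their call, and CYBA, NFKBIA, TGFB1, ATP6V1E1 and S100A10 kept their direction without passing the test. Of 98 counts of risen or fallen members per list, 78 stayed within 1.5 times under equal totals and 98 after centring, and all 49 list medians moved by less than 0.1 in both. Beside those given with their lists, equal totals gave 2 risen genes in the replication list, 2 among ER chaperones, 3 in nucleotide synthesis and 3 in the NRF2 list in place of 1 each, and 1 fallen autophagy gene in place of 3. With the SE of the difference divided by the root of 2, 2480 members were higher and 2602 lower at 24 h than at 6 h. No paired analysis was possible because no values per library were held; for the same reason leaving out each library and an edgeR fit were not run, so whether 1 library decides a value was not tested. With 2 libraries per group the spread rests on the authors' shared estimate across genes, and low base means limit the precision of single genes.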
